A study of Mus musculus with 6 samples.

Results

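The core components of TGF-beta signaling, which are the ligands Tgfb1, Tgfb2 and Tgfb3, the receptors Tgfbr1, Tgfbr2 and Tgfbr3 and the signal transducers Smad2, Smad3 and Smad4, were measured in mouse fibroblasts after antisense treatment against the long non-coding RNA Ntep. These 9 genes were chosen by name, and every non-control probe that the array assigns to one of them was taken, which gave 14 of 55681 probes for 9 of the 22942 genes that the probes could be matched to. 3T3 cells, an established mouse fibroblast line without any further genetic change in the labels, received either GapmeR Ntep or GapmeR control at 50 nM for 48 h in DMEM with 10% FBS and antibiotics. The dose is that of the labels, and the sample names in the core unit's documentation give it as 2 x 50 nM. A GapmeR is a chemically modified antisense oligonucleotide that recruits RNase H to its target RNA. Total RNA of 3 independent experiments, each with 1 culture per GapmeR, was hybridised to 6 single-color Agilent arrays, so that each label had 3 arrays and each experiment 1 array per label. The cells grew in serum and no TGF-beta treatment is named in the labels. A single line, a single control GapmeR and a single time point limit the design.

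TGF-beta ligands are secreted in a latent form and, once released, bind the type II receptor Tgfbr2, which recruits and phosphorylates the type I receptor Tgfbr1. Tgfbr3 (betaglycan) is a co-receptor that presents ligand, and in particular Tgfb2, to Tgfbr2. Activated Tgfbr1 phosphorylates Smad2 and Smad3, which join the common partner Smad4 and enter the nucleus, and in fibroblasts this pathway is known for inducing collagen and other matrix genes and the change to myofibroblasts.

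An array probe reads 60 bases of a transcript, and 3 of the 14 probes are shown. The Tgfb1 and Tgfb2 probes are shown for their homology, and the Tgfbr2 probe because the result on this gene differed between its probes. The Tgfb1 and Tgfb2 probes lie on homologous coding sequence of the C-terminal growth factor part, and capitals mark the bases they share when placed on each other without gaps. Over the 41 bases of overlap, 28 were identical (68.3%).
Tgfb1, base 1955 of the transcript: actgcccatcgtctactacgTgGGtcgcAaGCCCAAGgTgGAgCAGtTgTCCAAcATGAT
Tgfb2, base 2397 of the transcript: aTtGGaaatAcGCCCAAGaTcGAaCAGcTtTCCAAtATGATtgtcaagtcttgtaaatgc
In mm9, the build of the array files, the Tgfb1 probe lies at chr7:26489877-26489936 on the plus strand and the Tgfb2 probe at chr1:188449333-188449392 on the minus strand. The first Tgfbr2 probe ends on the TAG in capitals, which is the stop codon of the receptor, at chr9:115999496-115999555 on the minus strand.
Tgfbr2, base 2045 of the transcript: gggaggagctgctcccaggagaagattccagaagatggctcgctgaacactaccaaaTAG
A second Tgfbr2 probe starts 2341 bases further along the transcript, at base 4386.

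Values are quantile normalized intensities, which can be compared between arrays for 1 probe but not between probes, and differences are log2 of GapmeR Ntep minus GapmeR control with the standard error of the limma fit. A probe is said to have risen or fallen only where the Benjamini-Hochberg adjusted p of the unpaired limma fit was under 0.05. The adjustment runs over all tested probes, and a fit with experiments as blocks was run beside it. The targeted transcript, A630089N07Rik (Ntep), gave 472, 91.5 and 226 in experiments 1 to 3 under the label GapmeR Ntep, and 271, 272 and 361 in the controls. It was thus higher under the Ntep label in experiment 1, by 0.80, and lower in experiments 2 and 3, with differences of -1.57 and -0.68. The difference over all arrays was -0.48 ± 0.58 (SE, n = 3 per label, limma adjusted p = 0.632), and a two-sided exact permutation test gave p = 0.7, where 0.1 is the smallest p that 3 arrays against 3 allow. The array of experiment 1 is therefore called by its label, and results are also given without that experiment. Per array, 43.7% to 53.3% of probes were well above background. Of 10 fibroblast markers, 7 were well above background on all 6 arrays and Fap on none, and their summed signal was lower under the Ntep label (398255 to 513880) than in controls (588483 to 655929). By brightest probe, none of the 8 tested fibroblast markers passed in the unpaired fit (lowest limma adjusted p 0.135). Of 8 macrophage and leukocyte markers, Ptprc, Adgre1 and Mrc1 were above background on no array, whereas the summed signal of the list was 42450 to 75236 under the Ntep label and 19919 to 27404 in controls. By its brightest probe, Cd68 rose by 1.21 ± 0.17 (adjusted p = 0.0287), as the only 1 of 5 tested markers of this list that passed in the unpaired fit. With experiments as blocks, 4 of these 5 markers passed, all of them higher, while 16.0% of all tested genes passed. Summed signals were 3357 to 7646 against 3028 to 3958 for 6 epithelial markers, 837 to 992 against 793 to 1014 for 6 endothelial markers (Cdh5, Tek and Emcn above background on no array) and 146 to 349 against 333 to 860 for 4 muscle markers (Myod1 and Myh11 on no array). No tested epithelial, endothelial or muscle marker passed in the unpaired fit. With blocks, 1 epithelial marker passed as higher, 1 fibroblast and 1 muscle marker passed as lower, and no endothelial marker passed. A sum adds probes of unlike signal, so its brightest markers dominate it, and the sums themselves were not tested. These shifts in summed signal accompany every difference below and their part in it was not tested. In such bulk RNA, fewer cells of a type and less RNA per cell cannot be told apart.

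All 14 probes passed the filter on dim probes. With 6 probes higher and 8 lower, their median difference was -0.07, against 0.06 over the 30990 probes tested. Of those 30990 probes, 54.5% were higher. Only the Tgfbr2 probe at the stop codon passed the adjusted threshold, which is 7.14% of the 14 probes against a background of 5.30% of all tested probes (2.09% higher and 3.21% lower). The gene lists below use the brightest probe of each gene. By that rule Tgfbr2 is read at base 4386 (limma adjusted p = 0.864), and none of the 9 genes passed, the lowest adjusted p being 0.0505 for Smad2. An unadjusted p under 0.05 was seen for 5 of the 14 probes and for 25.0% of all probes. By the rule of a fold change of at least 2 with an unadjusted p under 0.01, 5 probes were called, of which 1 was higher and 4 were lower. The background of this rule was 8.13%, of which 3.08% were higher and 5.06% lower. The arrays of the labels did not overlap for 7 probes (3 higher and 4 lower), compared with 32.1% of all probes (17.0% higher and 15.1% lower). When experiments entered the fit as blocks, 6 probes passed (2 higher and 4 lower), against a background of 13.8% (6.54% higher and 7.31% lower). With 14 probes, several of which read the same transcript, these shares are a description of the genes and not a result about them as a set.

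Among the ligands, Tgfb2 was lower at both of its probes on every array labelled GapmeR Ntep than on any control, without passing the adjusted threshold in the unpaired fit. The probe at base 2397 read 551, 874 and 779 under the Ntep label and 1495, 1539 and 1413 in controls. The 2 groups did not overlap, and all 3 control values lay close together. The difference was -1.04 ± 0.22 (SE, n = 3 per label, 2.05-fold lower), at an adjusted p of 0.0528 in the limma fit and of 0.0458 with experiments as blocks. The second Tgfb2 probe, at base 4196 (mm9 chr1:188447534-188447593, minus strand), read 1199, 1056 and 989 against 2900, 1768 and 2225. Here the Ntep-labelled arrays were close together and the control of experiment 1 was the highest value. The difference was -1.06 ± 0.23 (adjusted p = 0.0556, with blocks 0.0398), so that the 2 probes, 1799 bases apart, gave nearly the same size. Within experiments the first probe differed by -1.44, -0.82 and -0.86 and the second by -1.27, -0.74 and -1.17. Without experiment 1 the adjusted p-values were 0.0701 and 0.0725.

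Tgfb3, which like Tgfb1 was printed in 10 spots per array, read 3645, 13262 and 8652 under the Ntep label and 11260, 20135 and 16177 in controls. Each Ntep-labelled array was below the control of its own experiment, but the groups overlapped because experiment 1 was low under both labels. Spots of this probe on 1 array varied with a CV of 1.81% to 5.91%, far less than the arrays of 1 label did among themselves. The unpaired difference of -1.04 ± 0.51 had an adjusted p of 0.264, and the fit with blocks gave 0.0670. Without array 1 under the Ntep label the difference was -0.52, and without array 2 under that label -1.46.

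Tgfb1, the ligand best known from fibrosis, read 466, 851 and 623 under the Ntep label and 1070, 723 and 769 in controls. The groups overlapped, and the sign differed between experiments, with -1.20 in experiment 1, 0.24 in experiment 2 and -0.30 in experiment 3. The difference of -0.42 ± 0.29 did not pass (adjusted p = 0.410, with blocks 0.392), with a 95% interval from -1.12 to 0.28. Without experiment 1 it was -0.03. None of the 4 ligand probes passed limma's adjusted threshold, whereas 2 had an unadjusted p under 0.05 and the same number passed with blocks.

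**Figure D1:**
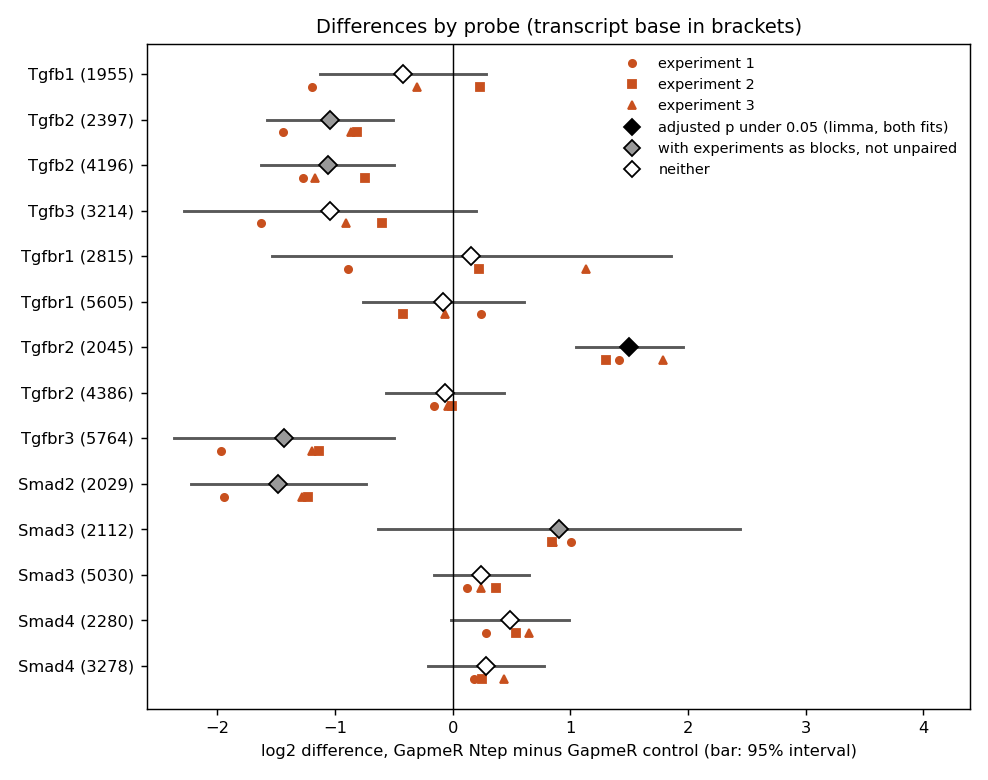
Log2 difference of GapmeR Ntep minus GapmeR control (x axis) for each probe (y axis, gene and transcript base). Diamonds are limma estimates over 3 arrays per label with the 95% interval as a bar, and the small orange symbols are the differences within the 3 experiments. The filled diamond is Tgfbr2 at base 2045, at 1.50 with an interval from 1.05 to 1.96. The gray diamonds of Tgfb2, Tgfbr3, Smad2 and Smad3 at base 2112 passed in the fit with experiments as blocks and not in the unpaired fit.

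The receptor probes did not share a direction, and those of Tgfbr2 differed from each other. Tgfbr2, the type II receptor that binds ligand, rose at its probe on the stop codon. This probe read 1547, 1341 and 1882 under the Ntep label and 580, 544 and 546 in controls. Every Ntep-labelled array was above every control, and the controls were nearly identical. The rise was 1.50 ± 0.19 (SE, n = 3 per label, 2.83-fold, limma adjusted p = 0.0243, with blocks 0.0312). The 3 experiments gave 1.42, 1.30 and 1.79. Without array 3 under the Ntep label or without any one of the 3 control arrays the call was lost (highest adjusted p 0.129) while the difference stayed at 1.37 to 1.52. In those 4 fits, 0 to 139 of all probes passed, at most 0.445%. Without experiment 1, where 2.86% of probes passed, the difference was 1.54 at an adjusted p of 0.0573.

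The other Tgfbr2 probe, at base 4386 (mm9 chr9:115997155-115997214, minus strand), did not show this difference. It read 10457, 8770 and 8249 under the Ntep label and 11653, 8800 and 8460 in controls. The groups overlapped, and in each experiment the arrays were close to each other, with -0.16, 0.00 and -0.04. The difference was -0.07 ± 0.20 (adjusted p = 0.864, 95% interval from -0.56 to 0.43). The log2 ratio of the first probe to the second was higher by 1.57 under the Ntep label, without overlap between the labels (exact permutation test, two-sided p = 0.1, the smallest possible for 3 against 3 arrays). Over the 6 arrays the 2 probes correlated at r = -0.18. The arrays thus measured unequal change at 2 places of the transcript, and which of them follows the amount of Tgfbr2 mRNA was not tested.

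Tgfbr3, the co-receptor, was lower under the Ntep label. Its probe (base 5764, mm9 chr5:107535818-107535877, minus strand) read 893, 2248 and 1917 against 3505, 4932 and 4379. The groups did not overlap, and experiment 1 had the lowest value under both labels. The difference was -1.43 ± 0.38 (2.70-fold lower, adjusted p = 0.0843, with blocks 0.0395), and within experiments it was -1.97, -1.13 and -1.19. Without experiment 1 it was -1.15 at an adjusted p of 0.0578.

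Tgfbr1, the type I receptor that phosphorylates Smad2 and Smad3, showed no stable direction. The probe at base 5605 (mm9 chr4:47427736-47427795, plus strand) read 5332, 2733 and 4126 under the Ntep label and 4503, 3664 and 4305 in controls, a difference of -0.08 ± 0.28 (adjusted p = 0.881, 95% interval from -0.76 to 0.60). The probe at base 2815 was dim and well above background on 2 Ntep-labelled arrays and 1 control array. It read 96.5, 63.7 and 57.6 against 178, 54.6 and 26.2, a difference of 0.16 ± 0.70 (adjusted p = 0.907). Its sign turned with a floor of 50 (-0.15) and with normexp background correction (-0.09).

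Of the Smads, Smad2 showed the largest difference in size. Its single probe (base 2029) read 3064, 2523 and 2570 under the Ntep label and 11759, 5919 and 6236 in controls. All Ntep-labelled arrays were below all controls, and the control of experiment 1 stood above the other two. The difference was -1.48 ± 0.30 (2.80-fold lower), with an adjusted p of 0.0505 and, with blocks, of 0.0345. Within experiments it was -1.94, -1.23 and -1.28. Without experiment 1 the difference was -1.24 and passed (adjusted p = 0.0493).

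Smad3, the partner that acts beside Smad2, was higher at both of its probes. At base 2112 (mm9 chr9:63497492-63497551, minus strand) it read 667, 198 and 220 under the Ntep label and 333, 110 and 122 in controls. Experiment 1 was high under both labels, so the groups overlapped, yet the differences within experiments were nearly the same at 1.00, 0.85 and 0.85. The unpaired difference of 0.90 ± 0.63 had an adjusted p of 0.422, and the fit with blocks gave 0.0367. It was 0.35 without array 1 under the Ntep label and 1.40 without control array 1. The brighter probe at base 5030 (mm9 chr9:63494574-63494633, minus strand) read 24247, 23130 and 22392 against 22266, 17895 and 18993. The groups did not overlap here, but the difference was 0.24 ± 0.17 and did not pass (adjusted p = 0.410, with blocks 0.286). The log2 ratio of the 2 Smad3 probes overlapped between the labels (exact permutation p = 0.5).

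Smad4, which both Smad2 and Smad3 bind, was higher in each experiment at both probes without passing. At base 2280 it read 5994, 5282 and 5261 under the Ntep label and 4926, 3635 and 3361 in controls. No Ntep-labelled array was below a control, and the difference was 0.49 ± 0.21 (adjusted p = 0.208, with blocks 0.104). At base 3278 it read 42374, 32891 and 39103 against 37466, 27695 and 28977, a difference of 0.29 ± 0.20 (adjusted p = 0.425). The log2 ratio of the Smad4 probe at base 2280 to that at base 3278 was higher by 0.20 under the Ntep label. As for Tgfbr2, this ratio did not overlap between the labels (exact permutation test, two-sided p = 0.1). The ratios of the Tgfb2 probes and of the Tgfbr1 probes overlapped. Of the 5 Smad probes none passed limma's adjusted threshold, 1 had an unadjusted p under 0.05 and 2 passed with blocks. Over the 9 genes, 11 of the 14 probes differed in the same direction in all 3 experiments, as did 59.0% of all tested probes.

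**Figure D2:**
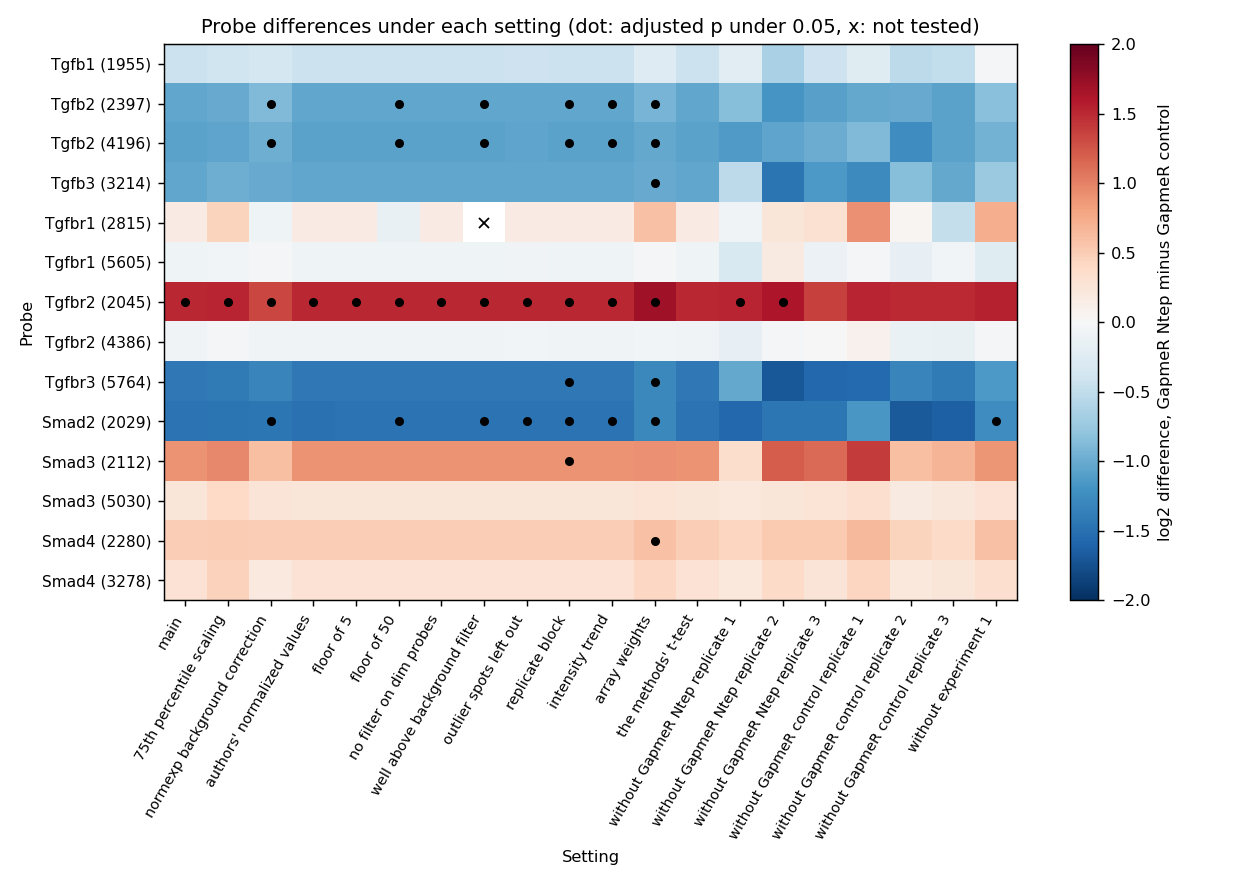
Log2 difference of GapmeR Ntep minus GapmeR control (color scale) for each probe (y axis) under each processing setting (x axis), with a dot where the adjusted p was under 0.05 and a cross where the probe was not tested. Tgfbr2 at base 2045 stays between 1.34 and 1.69, both Tgfb2 probes, Tgfbr3 and Smad2 stay below 0, and Tgfbr1 at base 2815 changes sign.

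The genes around these components were described in 7 lists with 127 genes in all, of which 110 had a tested probe. Each gene was represented by its brightest probe. Of the 110 genes, 2 rose and 6 fell (7.27%), against a background of 6.01% of all tested genes (2.33% higher and 3.68% lower). By fold change and unadjusted p, 4 were higher and 8 lower, with a background of 9.12% (3.19% higher and 5.93% lower). The arrays of the labels did not overlap for 13 genes that were higher and 24 that were lower, while 36.2% of all genes showed no overlap (17.8% higher and 18.4% lower). With blocks, 8 were higher and 10 lower, against 16.0% of all genes. The median difference of the 110 genes was -0.08 and that of all genes 0.003. Without array 3 under the Ntep label or control array 2 none of the 110 passed limma's adjusted threshold, nor did any probe of the whole array. Without control array 3 none of the 110 passed (5 of all probes, 0.0161%), and without control array 1 there was 1 (139 of all probes, 0.445%). Without experiment 1, 2 genes were higher and 4 lower past the threshold. Of the genes named below, Nox4 and Col5a2 then still passed, whereas Ltbp1, Fbn1, Plau, Smurf2 and Tab3 had adjusted p-values of 0.0509 to 0.0763.

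In the list of latent complex and ligand activation, 1 of 17 tested genes rose and 2 fell. That is 17.6%, against 6.01% of all tested genes (2.33% higher and 3.68% lower), and with 17 genes it is a description. Ltbp1, which tethers latent TGF-beta to the matrix, read 1334, 1580 and 1416 under the Ntep label and 5463, 3825 and 3502 in controls and fell by 1.54 on the log2 scale (SE 0.22, adjusted p = 0.0287). Fbn1, the microfibril protein that holds latent TGF-beta binding proteins, read 2290, 2380 and 2702 against 4990, 4329 and 4209 and fell by 0.88 (SE 0.17, adjusted p = 0.0439). Neither gene showed overlap between the labels. Plau, the urokinase that generates plasmin, rose by 2.33 ± 0.41 (adjusted p = 0.0363), from 60.6, 49.7 and 42.5 in controls, where 1 of 3 arrays was well above background, to 447, 156 and 232. With normexp background correction the difference was 1.08 and did not pass (adjusted p = 0.0546).

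Of the 22 Smad regulators and partners, 15 were higher and 7 lower, with a median difference of 0.18. Over all tested genes, 50.2% were higher. With 22 genes these counts are a description. Smurf2, a ubiquitin ligase that acts on Smads and receptors, read 564, 1176 and 939 under the Ntep label and 4451, 3406 and 2951 in controls and fell by 2.06 (SE 0.33, adjusted p = 0.0324). Its 3 probes lay between -2.24 and -1.63, and the brightest was the 1 that passed. Among the 15 non-Smad kinases and adaptors, Tab3, an adaptor of the kinase Map3k7 (TAK1), read 1500, 2207 and 1935 against 5479, 4502 and 4942 and fell by 1.42 (SE 0.21, adjusted p = 0.0288).

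Of 33 tested genes that TGF-beta is known to induce in fibroblasts, 2 fell and none rose (6.06%, close to the 6.01% of all tested genes). Nox4, an NADPH oxidase, read 570, 1500 and 1066 under the Ntep label and 8482, 6652 and 5483 in controls and fell by 2.80 (SE 0.39, adjusted p = 0.0281), and all 3 of its probes passed. Col5a2, a fibrillar collagen chain, read 1176, 1094 and 1182 against 4108, 3685 and 3744 and fell by 1.74 (SE 0.15, adjusted p = 0.0169). The experiments gave -1.80, -1.75 and -1.66. Of all 33 genes, 15 were higher and 18 lower, with a median of -0.19, while 50.2% of all tested genes were higher. Col1a1 differed by -0.43 ± 0.18 (adjusted p = 0.212) and Col3a1 by -0.81 ± 0.30 (adjusted p = 0.164), both without overlap between the labels. Acta2, the actin of myofibroblasts, differed by 0.36 ± 0.44 (adjusted p = 0.639), and Ctgf, a matricellular protein now named Ccn2, by 1.32 ± 0.97 (adjusted p = 0.444). Ctgf read 13970, 7298 and 9065 under the Ntep label and 19334, 1787 and 1719 in controls, so that experiment 1 went the other way from experiments 2 and 3 (-0.47, 2.03 and 2.40). Without experiment 1 the difference was 2.19 and passed (adjusted p = 0.0455), and without single arrays it ranged from 0.73 (without control array 3) to 2.46 (without control array 1). Cdkn1a, the cell cycle regulator p21, differed by 1.18 (limma adjusted p = 0.0768, with blocks 0.0391). By fold change and unadjusted p, 1 gene of this list was higher, which was Cdkn1a, and 3 were lower. Mmp2 was too dim to be tested and was well above background on 1 control array only.

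In 3 lists no gene passed limma's adjusted threshold. To be read beside their counts, 25.0% of all tested probes had an unadjusted p under 0.05. With blocks, 16.0% of all tested genes passed. Of 9 other receptors and co-receptors of the superfamily, 2 (Cd109 and Bmpr1a) had an unadjusted p under 0.05 and none passed with blocks, and the largest differences were -0.83 for Cd109 (adjusted p = 0.0915), -0.65 for the BMP receptor Bmpr1a (adjusted p = 0.0637) and 0.51 for the activin receptor Acvr1b (adjusted p = 0.240). By the methods' t-test, 1 of them, Bmpr1a, passed after adjustment. Of the 5 BMP-branch and inhibitory Smads, 1 had an unadjusted p under 0.05. This was the inhibitory Smad6, which read 183, 431 and 309 against 686, 719 and 873, a difference of -1.38 ± 0.34 (adjusted p = 0.0703, with blocks 0.0496). Smad7, the inhibitor of TGF-beta receptors, differed by 0.87 ± 0.59 (adjusted p = 0.408) and Smad1, a BMP-branch transducer, by 0.52 ± 0.52 (adjusted p = 0.558). Among 14 activins, GDFs and antagonists, 2 (Gdf11 and Gdf15) had an unadjusted p under 0.05 and 2 (Dcn and Gdf15) passed with blocks. The largest differences were -1.84 for Dcn, a proteoglycan that binds TGF-beta (adjusted p = 0.364, with blocks 0.0310), -1.49 for the activin subunit Inhbb (adjusted p = 0.392) and 1.34 for the stress-induced ligand Gdf15 (adjusted p = 0.122, with blocks 0.0310).

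**Figure D3:**
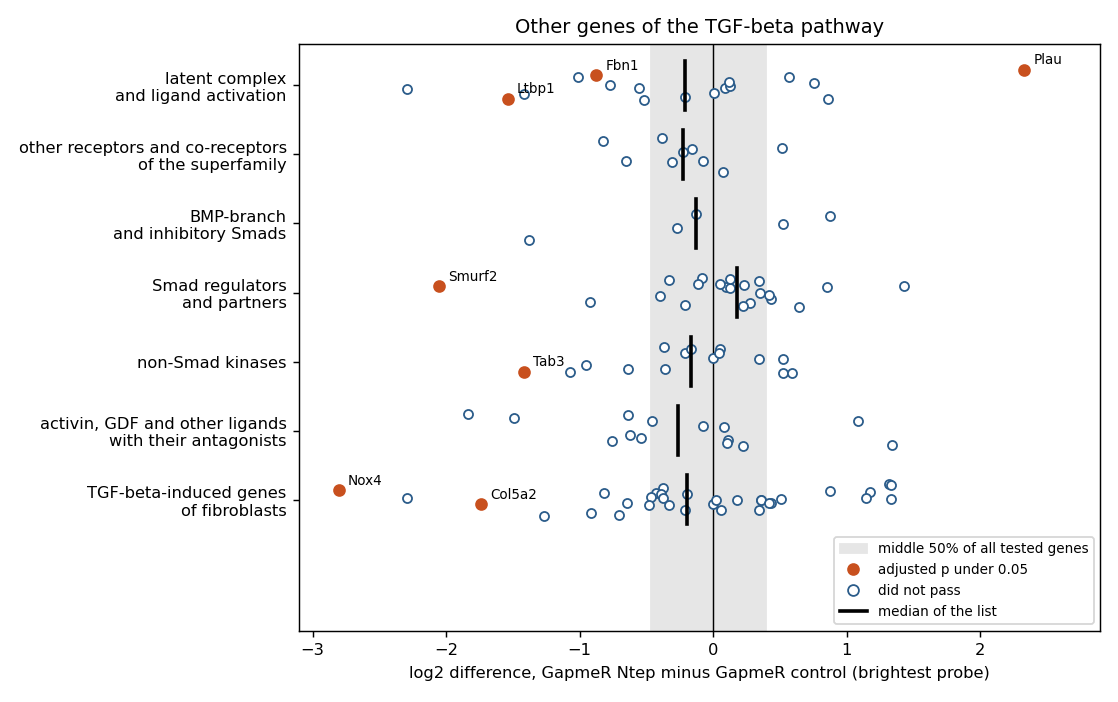
Log2 difference of GapmeR Ntep minus GapmeR control (x axis) for the tested genes of the 7 lists (y axis), 1 point per gene by its brightest probe, except that 1 gene is not drawn. Orange points passed an adjusted p of 0.05 and are named, the black line is the median of a list, and the gray band holds the middle 50% of all tested genes, from -0.47 to 0.40. All list medians lie inside this band, between -0.27 and 0.18.

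For the 5 probes past fold change and unadjusted p, the genes whose log2 values ran most closely with them over the 6 arrays were looked up as a description. These were Mkln1, Xaf1 and Phkb for Tgfb2 at base 2397 and Gm9791, Insr and Car7 for Tgfb2 at base 4196. For Tgfbr2 at base 2045 they were D230025D16Rik, Mtfr1 and Prmt6, for Tgfbr3 Lgals3bp, Atr and Slc22a5, and for Smad2 Dip2a, Hdgfl3 and Rasgrp3. All correlations were between 0.995 and 1.000, and they are the highest over all tested probes that were well above background on all 6 arrays. They were picked for their size over only 6 arrays, and shared regulation was not tested. The 2 Tgfb2 probes named different genes.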

How the data were processed

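The submitters' notes name Agilent Feature Extraction 10.7.3.1, with which the authors extracted spot intensities from single-color arrays. The scanner intensities used here were background-subtracted and detrended on a linear scale, not normalized between arrays. Arrays shared 1 slide and 1 scan, and their number limits the precision. As in the core unit's documentation, spots of a probe were averaged, arrays quantile normalized and values below 20 raised to 20. Probes averaging at least 50 in the brighter group were compared on log2 values with limma 3.58.1 (R 4.3.3), unpaired, two-sided, with Benjamini-Hochberg adjustment over all of them. The steps were tested on simulated data.

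Replicate numbers of that documentation, which forms ratios within a number, mark the experiments. Residuals correlated at 0.466, 0.300 and 0.254 for equal numbers and at -0.327 to 0.126 otherwise, so a fit with experiments as blocks was run beside the main one. The genes, lists and rules were chosen with earlier results of these data known. Named were all 14 probes, list genes past adjusted p (otherwise the 3 largest differences), list genes the study measured by qPCR and the 3 most correlated genes per called probe. The values of 1 list gene are not reported here, though list counts and medians include it. Symbols came from RefSeq (GRCm38.p6), which matched 31239 of 55681 probes. Alternatives were other normalizations, floors, filters, fits and each array left out. The authors' normalized values served as an alternative, and the authors' own fold changes and p-values were not used.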

Additional observations from a re-analysis of the deposited data

How the results depend on the processing

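With 3 arrays per label, the count of the 14 probes past an adjusted p of 0.05 depended on the fit. It was 1 as reported, 4 with normexp background correction, a floor of 50, a filter on probes well above background or an intensity trend, 2 without outlier spots, 6 with experiments as replicate block, 7 with array weights and 0 with the methods' t-test (5 at an unadjusted p under 0.05), and 0 to 1 when single arrays were left out. It was 0 without GapmeR Ntep array 3 or any control array, where 5 or 6 probes had an unadjusted p under 0.05. Leaving out experiment 1, chosen after seeing the data, left 1, Smad2 instead of Tgfbr2. The share of all probes past the adjusted p moved with these settings, from 5.30% as reported to 8.25% with normexp, 6.65% with a floor of 50, 11.4% with the well above background filter, 8.74% with the trend, 5.57% without outlier spots, 13.8% with the replicate block, 33.1% with array weights, 0.92% with the methods' t-test and 1.01% without a filter on dim probes, and single arrays left out gave 0% to 4.62%. The count past fold change and unadjusted p, 5 as reported, was 3 with normexp, the methods' t-test or without experiment 1, and 2 to 4 without single arrays, being 2 without GapmeR Ntep array 3, control array 1 or control array 3 and 3 without GapmeR Ntep array 2 or control array 2. Of the 110 list genes, the 8 past the adjusted p became 4 without a filter on dim probes or with the methods' t-test, 14 with the well above background filter or the trend, 18 with the replicate block and 43 with array weights, to be read against the same shares. Without that filter Ltbp1, Fbn1, Plau, Smurf2, Tab3 and Nox4 had adjusted p-values of 0.052 to 0.105, and Fbn1 had 0.0663 with scaling to the 75th percentile. The counts were 0 to 7 without single arrays, with 4 without GapmeR Ntep array 1, 1 without control array 1 and 0 without GapmeR Ntep array 3, control array 2 or control array 3 (18 to 22 at an unadjusted p under 0.05). The 12 genes past fold change and unadjusted p became 7 with the methods' t-test and 8 to 14 without single arrays. Reversed were Tgfbr1 at base 2815 with normexp (-0.093), a floor of 50 (-0.15) and without single arrays (-0.48 to 0.92), Tgfbr1 at base 5605 (-0.30 to 0.18 without single arrays, 0.18 without GapmeR Ntep array 2), Tgfbr2 at base 4386 (-0.16 to 0.079 without single arrays) and Ntep (-1.09 to 0.13 without single arrays). No other probe of the 14 changed direction under any of these settings. Scaling to the 75th percentile moved the median of all probes from 0.06 to 0.22 and reversed none of the 14. The causes were not tested.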
